A study of Mus musculus with 14 samples.

Results

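Fatty acid oxidation, ketogenesis and the genes under control of the nuclear receptor PPARA were followed here through 31 listed mouse genes, out of 29737 gene symbols over all the tables of the series. The members were taken by symbol from a list that was drawn up with earlier results of these data known, and all 31 were found in each of the 3 tables. They fall into 10 roles, from the carnitine shuttle of the mitochondrion to PPARA itself. The series holds liver RNA of 12 bulk libraries, in 4 groups of 3, and 2 libraries of single nuclei, each from 3 pooled livers.

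The first bulk table compared mice labelled wild type (WT) with mice labelled Ms4a7 KO, a knockout of a membrane protein gene of macrophages, with both groups on a diet that produces nonalcoholic steatohepatitis (NASH) for 22 weeks. The second, by its labels, compared 2 groups of wild-type mice on a chow diet. They are labelled as given tail-vein injections of phosphate-buffered saline (PBS) or of lipid droplets (LD), on 6 consecutive days. The nuclei came from livers of the same 2 genotypes on the NASH diet. Neither age nor sex, nor how the Ms4a7 allele was made, is given in the sources used here. The labels do not say that the libraries of a group came from separate animals, so p-values measure the spread between these libraries.

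The labels of the bulk libraries are in doubt. Ms4a7 had 9.70, 25.8 and 23.3 normalized counts in the WT-labelled libraries, against 102, 117 and 136 in the KO-labelled ones (log2 fold change 2.63 ± 0.37, limma, adjusted p = 0.0149). This is the opposite of what a knockout label says. In the other table the PBS-labelled libraries had 62.2, 84.7 and 163 and the LD-labelled ones 10.5, 7.60 and 9.32 (-3.26 ± 0.39, adjusted p = 0.00428). The table names of the submitters also disagree with the labels: the table labelled WT and KO is named for lipid droplets and the table labelled PBS and LD for Ms4a7. In the header of the first of these, the libraries labelled WT are called untreated and those labelled KO treated. The genotype, diet and injection of each bulk group are known only through these labels and are in doubt with them. Every direction below is therefore that of the libraries that carry a label, written as labelled KO or labelled LD.

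In the mitochondrion, fatty acids are carried across the inner membrane as carnitine esters and then shortened by a repeated cycle of dehydrogenase, hydratase, dehydrogenase and thiolase reactions. Peroxisomes shorten very long chains, and microsomal CYP4A enzymes attack the far end of the chain. In the fasting liver PPARA raises many of these genes, and the acetyl-CoA made feeds the synthesis of ketone bodies for other tissues.

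Upstream sequence is shown for the genes that passed the test and could be read outside annotated exons, and for Hadha and Hadhb, whose products are the subunits of 1 enzyme and whose genes lie head to head. The sequences are from RefSeq windows on GRCm38.p6, written 5′ to 3′, with the GC box, GGGCGG, in capitals. In Fgf21 the core promoter motif TATAAA is in capitals too. The Cpt2 stretch is chr4:107923611-107923709 on the minus strand, the Fgf21 stretch is chr7:45615491-45615610 on the minus strand, and the stretch between Hadha and Hadhb is chr5:30155163-30155247, read on the plus strand in the direction of Hadhb.
Cpt2: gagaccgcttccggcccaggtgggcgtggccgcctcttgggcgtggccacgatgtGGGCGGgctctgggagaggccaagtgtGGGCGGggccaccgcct
Fgf21: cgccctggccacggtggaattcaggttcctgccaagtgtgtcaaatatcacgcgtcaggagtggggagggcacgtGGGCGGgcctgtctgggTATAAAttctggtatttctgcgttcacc
Hadha-Hadhb: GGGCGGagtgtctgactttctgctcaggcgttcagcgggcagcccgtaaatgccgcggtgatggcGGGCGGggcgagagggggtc
The GC boxes of Cpt2 begin 65 and 38 bases before its RefSeq start, and those between Hadha and Hadhb begin 90 and 25 bases before the start of Hadhb. In Fgf21 a GC box begins 45 bases and TATAAA 28 bases before the start.

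Windows from 250 bases before to 50 after the start were found for 24 of the 31 members and were searched on both strands. A member counted when any window of its symbol matched, while the share over all is per window, so these are unlike measures. GGGCGG was in 18 of them (75.0%), against 35.7% of all 32851 windows. CCAAT was in 11 (45.8%), against 37.4%. TATAAA was in Fgf21 alone (4.17%), against 13.6%. The DR1 element that PPARA binds, in its ideal form of AGGTCA repeated with 1 base of any kind between, was in 0 of 24 and in 0.0396% of all windows, and its repeat unit AGGTCA, which overlaps it, was in 3 (Acadm, Acadvl and Cpt1a; 12.5%), against 16.3%. These are matches of letters in short windows and not binding sites.

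Between the libraries labelled KO and WT, Cpt2 and Etfdh fell in the first and the other members did not pass the test. Members were tested on log2 of the normalized count plus 1 with limma, with Benjamini-Hochberg adjustment over all genes and a threshold of 0.05, and log2 fold changes with their SE are on that scale. Of the 30 members with enough counts, 0 were higher and 2 lower. Of all 15827 genes tested, 3.72% passed in either direction, 0.701% lower and 3.02% higher. The median log2 fold change of the members was -0.23, against -0.02 for all genes, and 28 of 30 lay below 0, against 52.8% of all genes. Without KO replicate 2 the median was -0.14. At an unadjusted p under 0.05, 9 members were lower and 0 higher, against 7.99% and 10.7% of all genes, or 18.7% in either direction. The 3 libraries labelled KO all lay below the 3 labelled WT for 10 of the members tested, against 11.7% of all genes, and the reverse held for 0 members, against 12.4%. The members share libraries and cells, so these counts are a description of the list.

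**Figure D1:**
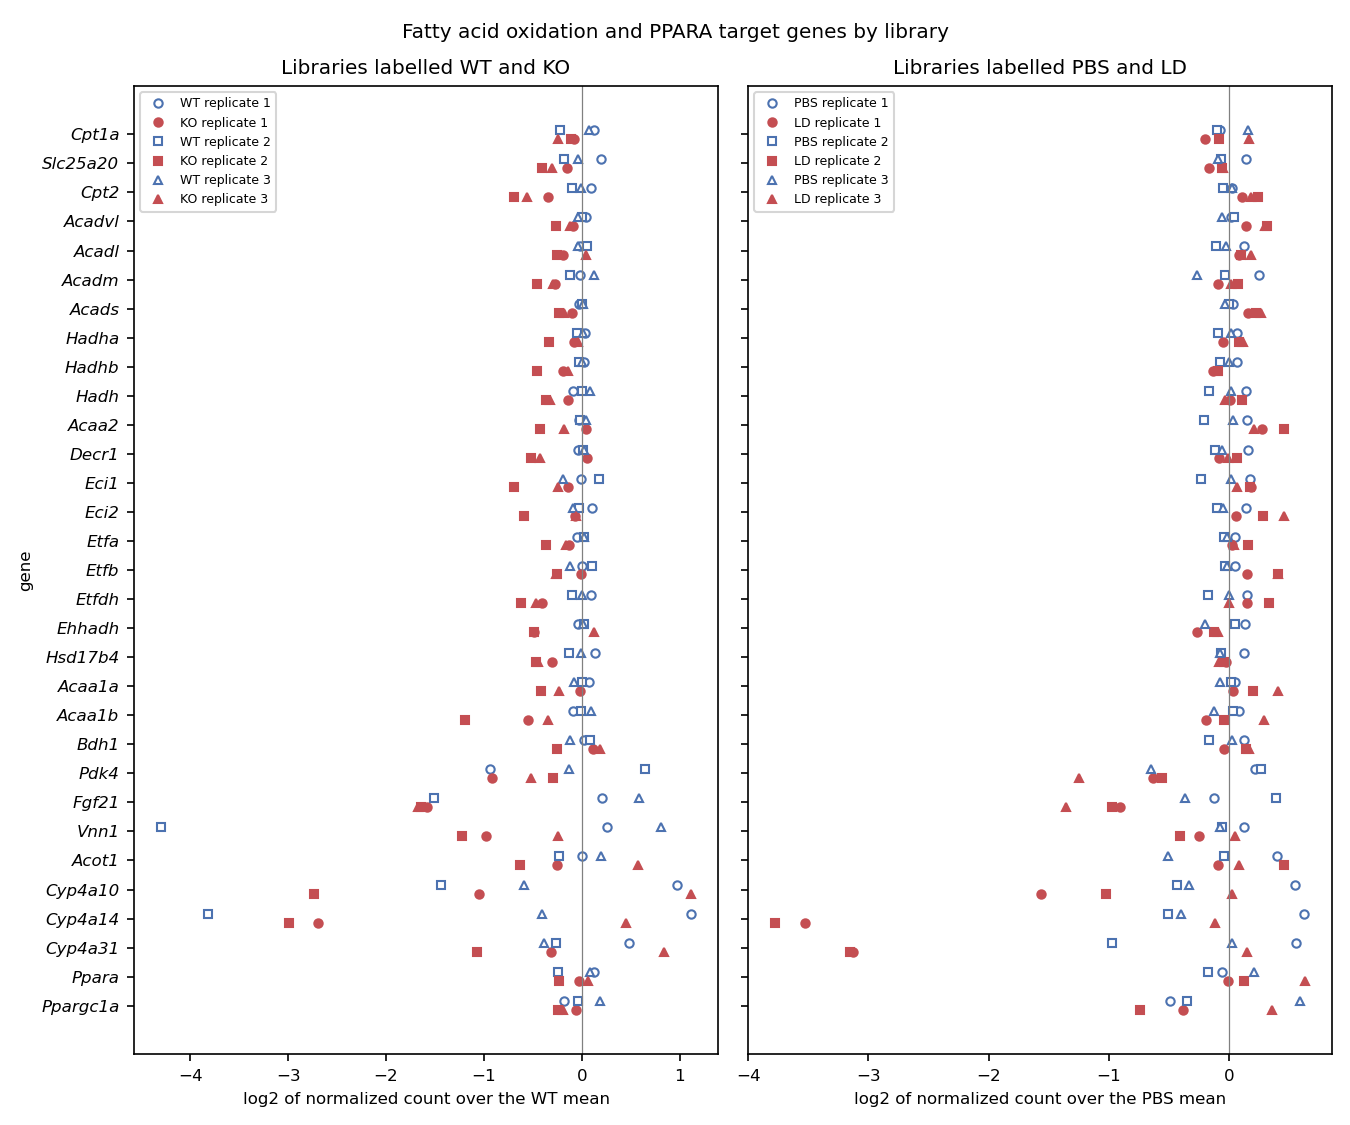
Normalized counts of the 31 members in each library, as log2 of the value over the mean of the control group (x axis), with 1 gene per line (y axis). Left, libraries labelled WT (open) and KO (filled); right, libraries labelled PBS (open) and LD (filled); the shape gives the replicate. Most enzymes stay close to 0 in both tables, Cpt2 and Etfdh lie to the left in all 3 libraries labelled KO, and the Cyp4a genes and Vnn1 spread widely within groups.

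The carnitine shuttle held 1 of these 2 genes. Cpt2 (chromosome 4, 107903981 to 107923610), which releases fatty acids from carnitine on the matrix side, had 3884, 3390 and 3608 normalized counts under the label WT and 2864, 2245 and 2457 in those labelled KO. All 3 libraries labelled KO were lower than all 3 labelled WT, and the log2 fold change was -0.53 ± 0.11 (adjusted p = 0.0460): Cpt2 fell by 30.7%. Cpt2 is at the edge of the threshold: when each library was left out in turn it was kept in 1 of 6 fits (adjusted p of up to 0.139), and it did not pass in edgeR or with quantile normalization. Cpt1a, the outer-membrane entry enzyme that malonyl-CoA inhibits, was 6413, 5050 and 6230 against 5590, 5466 and 4990, and the groups overlapped (-0.13 ± 0.11, adjusted p = 0.596). Slc25a20, the carnitine carrier of the inner membrane, was 2403, 1854 and 2046 against 1891, 1583 and 1703, with overlap between the groups (-0.28 ± 0.12, adjusted p = 0.265).

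The electron transfer flavoprotein passes electrons from the acyl-CoA dehydrogenases to ubiquinone through the oxidoreductase that Etfdh encodes. Etfdh (chromosome 3, 79603788 to 79629500) was 4278, 3739 and 4009 in the libraries labelled WT and 3024, 2599 and 2895 in those labelled KO. The groups did not overlap, and Etfdh fell by 29.2% (-0.50 ± 0.09, adjusted p = 0.0361). It passed in edgeR and DESeq2, was lost with quantile normalization, and was kept in 1 of 6 fits when each library was left out in turn (adjusted p of up to 0.112). The 2 subunits of the flavoprotein itself had smaller differences that did not pass: Etfa had a log2 fold change of -0.22 ± 0.09 with groups apart, and Etfb had -0.17 ± 0.10 with groups that overlapped. Etfb shares 43.8% of its 50-base stretches with the overlapping model Gm45233, so its count is uncertain.

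The acyl-CoA dehydrogenases, which open the cycle for chains of different length, and the enzymes of the next 3 steps did not pass. Acadm, the medium-chain dehydrogenase, was 5485, 5108 and 6046 in the libraries labelled WT and 4580, 4038 and 4540 in those labelled KO. The groups lay apart, but the change of -0.34 ± 0.10 had an adjusted p of 0.117. Acads (short chain) and Acadvl (very long chain) also had groups apart at -0.17 ± 0.08 and -0.16 ± 0.08, and Acadl (long chain) overlapped at -0.13 ± 0.10. Hadh, the short-chain hydroxyacyl-CoA dehydrogenase, was 6818, 7267 and 7690 against 6608, 5618 and 5788 (-0.28 ± 0.10, adjusted p = 0.190). All 3 libraries labelled KO lay below those labelled WT for Hadh.

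Hadha and Hadhb encode the alpha and beta subunits of the trifunctional protein, which carries out 3 steps of the cycle on long chains. Hadha was 7742, 7302 and 7640 against 7181, 6015 and 7345, and its groups overlapped. Hadhb was 3135, 3024 and 3072 against 2700, 2242 and 2797, with groups apart. Neither passed (-0.15 ± 0.10 and -0.26 ± 0.10), and 18.1% of the 50-base stretches of Hadhb are shared with Gm13910. Acaa2, the mitochondrial thiolase, had -0.19 ± 0.13, and the auxiliary enzymes for unsaturated chains had -0.30 ± 0.15 for Decr1, -0.35 ± 0.16 for Eci1 and -0.23 ± 0.15 for Eci2, each with overlap. Decr1 was 3342 in KO replicate 1, above the WT range of 3155 to 3283, and 2258 and 2403 in the other KO libraries.

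In the peroxisome, none of the 4 members passed, and 2 had groups apart. Acaa1b, 1 of 2 mouse peroxisomal thiolases, was 18780, 19950 and 21310 in the libraries labelled WT and 13690, 8770 and 15800 in those labelled KO. KO replicate 2 was the lowest, and the change of -0.69 ± 0.21 had an adjusted p of 0.125. Acaa1b shares 30.5% of its 50-base stretches with Acaa1a, which was 5326, 5082 and 4774 against 4984, 3805 and 4315 (-0.22 ± 0.11). Hsd17b4, the multifunctional enzyme of the branched-chain route, was 9352, 7777 and 8486 against 6906, 6187 and 6269. Its groups lay apart, at -0.40 ± 0.10 (adjusted p = 0.0781). DESeq2 on recovered reads called Acaa1b and Hsd17b4 lower, besides Cpt2 and Etfdh. Ehhadh, the multifunctional enzyme of the straight-chain route, was 6204, 6474 and 6429 against 4550, 4552 and 6965, so that KO replicate 3 was above every library labelled WT.

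**Figure D2:**
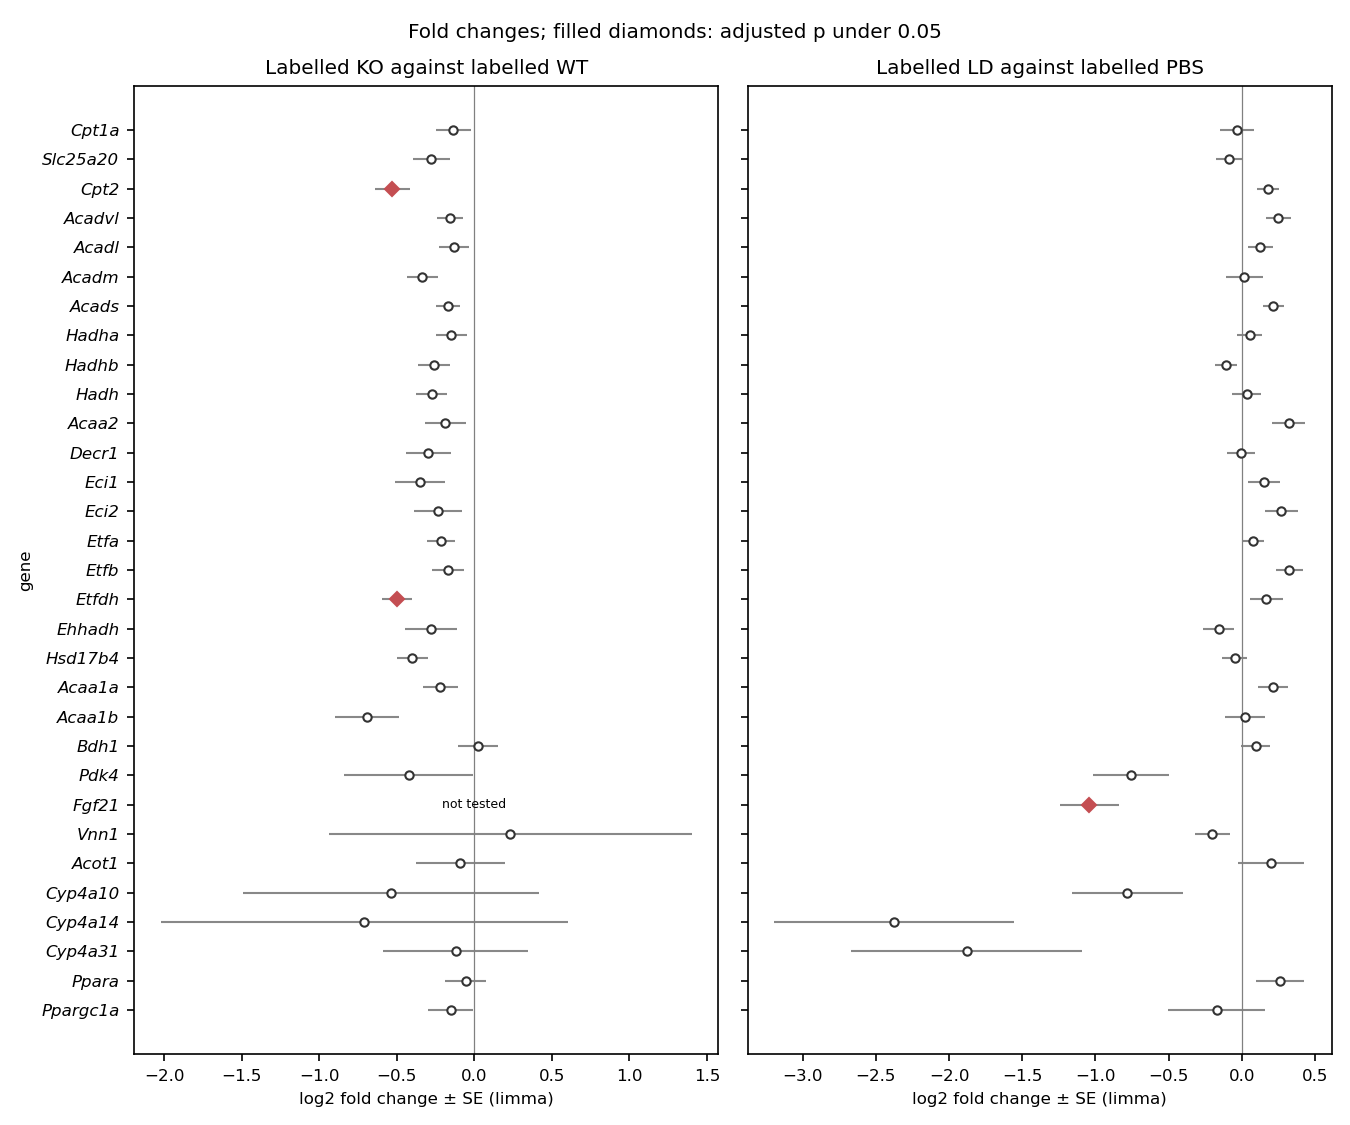
Log2 fold change (x axis) with its SE from limma for each member (y axis), labelled KO against labelled WT on the left and labelled LD against labelled PBS on the right, 3 libraries per group; filled diamonds have an adjusted p under 0.05. Cpt2, at -0.53, and Etfdh, at -0.50, are the filled points on the left and Fgf21, at -1.04, on the right. Within the left panel the longest error bars are those of Cyp4a14, Vnn1, Cyp4a10 and Cyp4a31, and within the right panel those of Cyp4a14 and Cyp4a31.

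The genes that PPARA is known to raise most spread widely within groups, and none passed. Cyp4a14 (chromosome 4, 115486200 to 115496142), a fatty acid omega-hydroxylase, had 674, 22.0 and 234 normalized counts under the label WT and 47.9, 39.0 and 424 in those labelled KO. Cyp4a10, its neighbour with the same function, was 2659, 500 and 897 against 654, 203 and 2923. Cyp4a31 was 145, 86.5 and 79.6 against 83.6, 49.6 and 187. In all 3 genes KO replicate 3 was the highest and KO replicate 2 the lowest of its group, and the groups overlapped, with adjusted p of 0.825, 0.819 and 0.922. Of the 50-base stretches of Cyp4a10, 24.5% are shared with Cyp4a32, so reads of the 2 may be exchanged.

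Vnn1, a pantetheinase raised by PPARA agonists, was 274, 11.6 and 403 in the libraries labelled WT and 117, 98.1 and 194 in those labelled KO. WT replicate 2 was the lowest of its group for both Vnn1 and Cyp4a14. The log2 fold change of Vnn1 was above 0 (0.23 ± 1.17) while its mean went from 229 to 136, and it was -1.34 without WT replicate 2. Acot1, a cytosolic acyl-CoA thioesterase, was 354, 301 and 404 against 296, 228 and 527 (-0.09 ± 0.29). Pdk4, the kinase that shuts off pyruvate dehydrogenase in fasting, was low in all libraries, at 18.2, 54.2 and 31.8 against 18.4, 28.4 and 24.2 (-0.42 ± 0.41). Fgf21, a hormone that the liver releases in fasting, was too low to be tested, at 18 reads in all the libraries labelled WT and 6 in those labelled KO.

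Ppara and its coactivator gene Ppargc1a did not differ beyond their spread. Ppara was 750, 584 and 731 against 676, 586 and 718 (-0.06 ± 0.13, adjusted p = 0.863). Ppargc1a was 156, 173 and 202 against 170, 150 and 156 (-0.15 ± 0.15, adjusted p = 0.640). Bdh1, which makes beta-hydroxybutyrate from acetoacetate, was 5189, 5400 and 4680 against 5522, 4280 and 5806 (0.02 ± 0.13). All 3 genes had overlapping groups.

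The authors' deposited table gave more calls than the test used here. In the authors' deposited table, 10 of the 31 members had an adjusted p under 0.05 in this comparison, all lower, where 15.4% of 17449 genes with such a p passed, 6.01% lower and 9.37% higher. The 10 were Acaa1b, Acadm, Acads, Cpt2, Eci1, Etfa, Etfdh, Hadh, Hsd17b4 and Slc25a20. Cpt2 had -0.53 with an adjusted p of 6.69e-07 in the authors' deposited table, and Hsd17b4 had -0.40 with 2.56e-06.

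**Figure D3:**
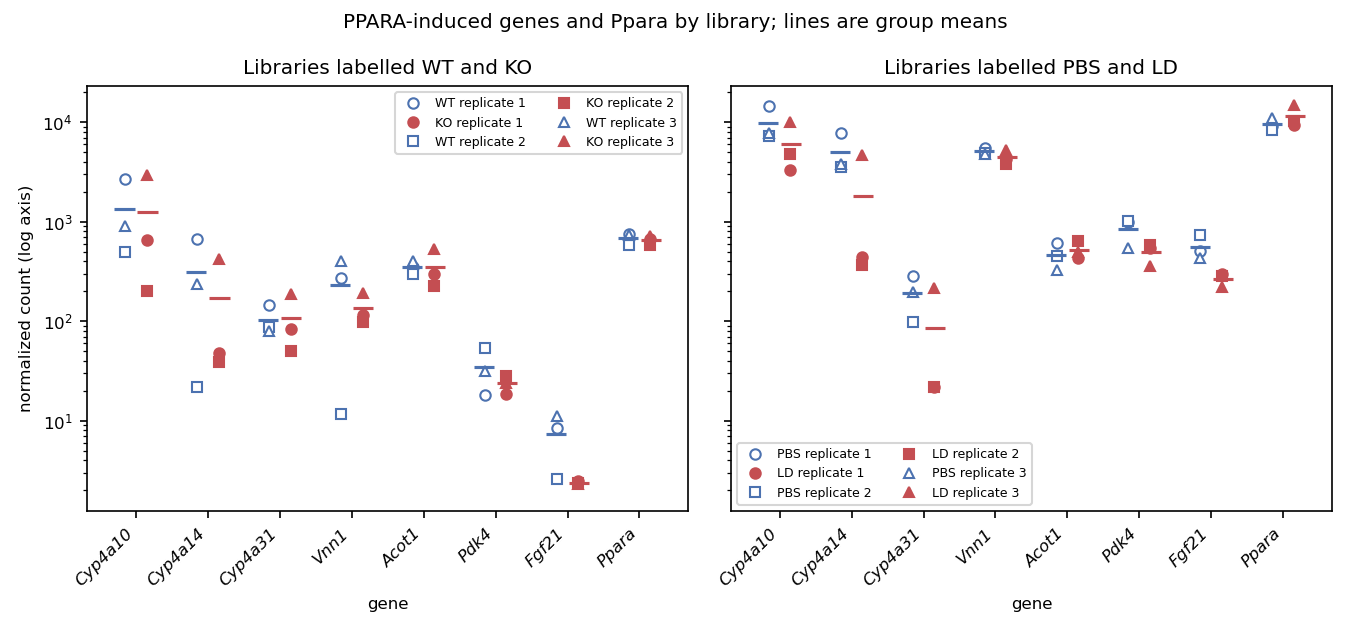
Normalized counts (log axis) of 7 PPARA-induced members and Ppara in each library, open for controls and filled for the other group, with group means as lines; the shape gives the replicate. On the left WT replicate 2 is lowest of its group for Vnn1 (11.6) and Cyp4a14 (22.0), and on the right LD replicate 3 stands above the other LD libraries for Cyp4a10, Cyp4a14 and Cyp4a31.

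Further genes of the same pathways were taken from 7 lists, beside all 15827 genes tested, of which 3.02% were higher and 0.701% lower. In the libraries labelled KO, the mitochondrial list beyond the members had 0 of 15 higher and 3 lower with a median of -0.29: Acsl1, which activates long-chain fatty acids (-0.75), Acad10 (-0.54) and Mmut, the methylmalonyl-CoA mutase (-0.41). The peroxisomal list had 0 of 18 higher and 1 lower, the membrane transporter Abcd3 (-0.53), with a median of -0.35. The list of other PPARA targets had 1 of 30 higher, the mitochondrial carrier Ucp2 (1.43). It had a median of -0.37 and 3 lower: Acsl1 again and the CYP4A genes Cyp4a12a (-0.65) and Cyp4a12b (-1.17). Whether PPARA controls the genes of this list in these livers was not tested. The call of Cyp4a12b held in all 13 alternative fits. With each library left out in turn, those of Acsl1, Acad10, Mmut and Cyp4a12a were kept in 1 of 6 fits and that of Abcd3 in 0. Mmut was lost in 10 of the 13 alternatives, edgeR and quantile normalization among them, and Abcd3 also with quantile normalization and with the replicate block, while Acsl1, Acad10 and Cyp4a12a were lost only when a library was left out.

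The ketogenesis list had 1 of 8 higher and 0 lower, with a median of -0.22. The gene that rose was Oxct1 (1.27), which is used to break down ketone bodies rather than to make them. Of 24 partners and upstream regulators of PPARA, the receptor gene Ppard (0.68) and the receptor tyrosine kinase gene Fgfr1 (1.14) rose and Pparg fell (-0.96), with a median of -0.06. With each library left out in turn, Oxct1 was kept in 2 of 6 fits, Ucp2 in 3, Fgfr1 in 5, Pparg in 1 and Ppard in 0. Electron transport chain subunits had 0 of 16 called and a median of -0.17, with Atp5a1 and Atp5b, subunits of ATP synthase, at -0.20 each. Fatty acid synthesis genes had 0 of 14 called and a median of 0.22; Scd1, a desaturase, was 57270, 18850 and 82600 against 64330, 139800 and 105600, and Thrsp had a log2 fold change of -0.17. At an unadjusted p under 0.05, 12 of 18 peroxisomal genes were lower and 3 higher, 15 of 30 other PPARA targets lower and 3 higher, 8 of 15 mitochondrial genes lower and 0 higher, and 4 of 8 ketogenesis genes lower and 1 higher. By the same measure 7 of 24 regulators were lower and 2 higher, 3 of 16 electron transport subunits lower and 0 higher, and 0 of 14 synthesis genes lower and 2 higher. Of all genes 7.99% were lower and 10.7% higher, and at the adjusted threshold 0.701% were lower and 3.02% higher.

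Markers of other cells moved with the same contrast, in which 3.02% of all genes were called higher and 0.701% lower. Of 12 macrophage markers 9 were higher and 0 lower in the libraries labelled KO, and their summed level ran from 4672 to 9091 in the libraries labelled WT and from 32560 to 57740 in those labelled KO, with no marker at 0. Of 10 hepatocyte markers 0 were higher and 1 lower, and their summed level ran from 2077000 to 2321000 and from 2163000 to 2598000. Pericentral markers had 0 of 10 called and a median log2 fold change of -0.06, with 6 of 10 below 0. Their sum was lower without overlap, from 291900 to 303200 under the label WT and from 242000 to 287200 under the label KO. The largest part of that sum was Cyp2e1, with means of 206000 and 171100, the only 1 of the 10 with groups apart. Of 10 periportal markers 3 were higher and 0 lower, with sums of 214500 to 227800 and 198900 to 277700. Neutrophil markers had 1 of 3 tested higher, and their sum ran from 76.4 to 118 and from 292 to 691. The higher macrophage and neutrophil sums and the lower pericentral sum, of which Cyp2e1 was the largest part, stood beside the lower values of the members. Their part in those values was not tested. In bulk liver, fewer cells of a type and less RNA per cell cannot be told apart.

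Between the libraries labelled LD and PBS, Fgf21 fell in the first and no other member passed. Of 31 members tested, 0 were higher and 1 lower. Of all 14900 genes, 4.16% passed in either direction, 2.21% lower and 1.95% higher. Their median log2 fold change was 0.03, against 0.003 for all genes, and turned to -0.11 with quantile normalization. Of the 31 members 13 lay below 0, against 49.5% of all genes. At an unadjusted p under 0.05, 6 members were higher and 4 lower, against 9.28% and 10.4% of all genes, or 19.7% in either direction. Levels are not compared between the 2 tables, which were scaled separately.

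Fgf21 (chromosome 7, 45613886 to 45615490), whose upstream stretch with TATAAA is given above, had 513, 733 and 434 normalized counts under the label PBS and 298, 285 and 219 in those labelled LD. All 3 libraries labelled LD were below all 3 labelled PBS, and Fgf21 fell by 51.4% (-1.04 ± 0.20, adjusted p = 0.0251). The call was kept without PBS replicate 3 and without LD replicate 3 and lost without any of the other 4, where the adjusted p reached 0.0892. It was kept in edgeR and DESeq2. Pdk4 was 985, 1021 and 543 against 547, 578 and 357, so that PBS replicate 3 lay within the LD range, and the change of -0.76 ± 0.26 did not pass (adjusted p = 0.147). DESeq2 on recovered reads called Pdk4 lower (adjusted p = 0.0191), as did the fit with the replicate block (adjusted p = 0.00675).

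The 3 CYP4A members depended on 1 library. Cyp4a14 was 7749, 3546 and 3815 in the libraries labelled PBS and 438, 367 and 4636 in those labelled LD. Cyp4a10 was 14430, 7295 and 7799 against 3321, 4836 and 10040, and Cyp4a31 was 284, 98.2 and 196 against 22.0, 21.7 and 213. LD replicate 3 lay within the PBS range in all 3 genes, while LD replicates 1 and 2 lay below every PBS library. With all libraries the changes of -2.38 ± 0.82, -0.78 ± 0.38 and -1.88 ± 0.79 did not pass (adjusted p = 0.148, 0.294 and 0.232). Without LD replicate 3 they were -3.55, -1.22 and -2.95 and passed (limma, adjusted p = 0.000355, 0.0248 and 0.00280), in a fit that called 1226 of all genes against 620 with every library. No cause for the difference of that library was tested.

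Vnn1 was 5533, 4896 and 4826 in the libraries labelled PBS and 4275, 3824 and 5267 in those labelled LD (-0.20 ± 0.12). LD replicate 3 lay within the PBS range and LD replicates 1 and 2 below it. Acot1 was 614, 452 and 327 against 436, 638 and 492 (0.20 ± 0.22). Ppara was 9127, 8460 and 10990 against 9498, 10380 and 14810, highest in LD replicate 3 (0.26 ± 0.17, adjusted p = 0.431). Ppargc1a was 172, 191 and 365 against 187, 145 and 311 (-0.17 ± 0.33). In all of Vnn1, Acot1, Ppara and Ppargc1a the groups overlapped, and none passed.

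No mitochondrial enzyme passed. Of the 31 members 5 had higher values in all 3 libraries labelled LD than in any labelled PBS, against 12.6% of all genes. These 5 were mitochondrial enzymes. The reverse held for 2 members, Fgf21 and Hadhb, against 12.8%. Etfb was 6066, 5705 and 5782 against 6492, 7750 and 7784, with groups apart (0.32 ± 0.09, adjusted p = 0.0893), and passed in DESeq2 on recovered reads. Acaa2 was 23010, 18010 and 21250 against 25080, 28480 and 24020 (0.32 ± 0.11), Acadvl was 9975, 10150 and 9477 against 10860, 12260 and 12120 (0.25 ± 0.08), and Acads was 5580, 5440 and 5336 against 6086, 6367 and 6550 (0.22 ± 0.07). The last of the 5 was Cpt2, at 5960, 5669 and 5977 against 6340, 6941 and 6674 (0.18 ± 0.08). The adjusted p of the 5 ran from 0.0893 for Etfb to 0.233 for Cpt2.

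Both subunits of the trifunctional protein had small changes. Hadhb was 4662, 4211 and 4446 against 4040, 4166 and 4141, lower in all 3 libraries labelled LD (-0.11 ± 0.08), while Hadha was 18640, 16710 and 17970 against 17200, 18860 and 19270 and overlapped (0.05 ± 0.09). Neither difference passed. Cpt1a (-0.03 ± 0.12), Slc25a20 (-0.09 ± 0.09), Acadm (0.02 ± 0.13), Hadh (0.03 ± 0.10) and Decr1 (0.00 ± 0.09) all had overlapping groups. Acadl (0.13 ± 0.09), Eci1 (0.15 ± 0.11), Eci2 (0.27 ± 0.11), Etfa (0.08 ± 0.08) and Etfdh (0.17 ± 0.11) also overlapped.

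Peroxisomal members did not pass in the libraries labelled LD. Acaa1b was 51240, 49580 and 44290 against 42380, 46990 and 59240, so that the lowest and the highest value were both in libraries labelled LD (0.02 ± 0.14). Acaa1a had 0.21 ± 0.10, Ehhadh -0.16 ± 0.10 and Hsd17b4 -0.05 ± 0.09. Bdh1, on the ketone route, was 12220, 10020 and 11440 against 10930, 12380 and 12610 (0.09 ± 0.10). At an adjusted p under 0.05, the authors' deposited table had 2 members lower in this comparison, Fgf21 and Pdk4, and 1 was higher, Etfb, of 30 with such a p. Of all 15994 genes with one in the authors' deposited table, 7.46% passed, 4% lower and 3.46% higher.

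Per kilobase of exon, Acaa1b and Acaa2 had the highest levels of the members in both tables. In the libraries labelled PBS they had 24700 and 13700 normalized counts per kilobase, and in those labelled WT 10200 each. The lowest were Fgf21, at 7.74 in the libraries labelled WT, and Ppargc1a, at 36.8 in those labelled PBS.

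The 7 pathway lists had more higher than lower calls in the libraries labelled LD, where 1.95% of all 14900 genes were higher and 2.21% lower. Bdh2, a member of the ketogenesis list, was 1 of 8 called (0.72), with a list median of 0.10. Of 18 peroxisomal genes 2 rose and 0 fell, the racemase Amacr (0.34) and the CoA diphosphatase Nudt7, at 4768, 4524 and 5870 against 11490, 10680 and 9737 (1.08), with a median of 0.11. Nudt7 was called in all 13 alternative fits, and Amacr was kept in 1 of 6 fits when each library was left out in turn. Hsd17b10 rose among 14 mitochondrial genes (0.63; median 0.13), Sdhb among 16 electron transport subunits (0.51; median 0.17) and Foxa2 among 24 regulators (0.62; median 0.14). Bdh2, Hsd17b10, Sdhb and Foxa2 were each kept in 2 of the 6.

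Other PPARA targets had 2 of 30 higher, Tmem25 (0.51) and Cyp4f15 (0.54), and 1 lower, the fatty acid uptake receptor gene Cd36 (-0.53), with a median of 0.06. Fatty acid synthesis had 4 of 14 higher and 0 lower, with a median of 0.12: Thrsp (1.01), Srebf1 (0.65), Mlxipl (0.57) and Dgat2 (0.42), of which Srebf1 and Mlxipl encode transcription factors of lipogenesis. Mlxipl was called in all 13 alternative fits, and Thrsp, Srebf1 and Dgat2 were lost with quantile normalization. With each library left out in turn, Cyp4f15 was kept in 3 of 6 fits, Thrsp in 2, and Tmem25, Cd36, Srebf1 and Dgat2 in 1. Of 10 cholangiocyte markers 0 were higher and 5 lower in the libraries labelled LD, with a summed level of 11000 to 14940 in PBS and 5135 to 8363 in LD. Of 10 stellate cell markers 0 were higher and 4 lower, with sums of 39250 to 45000 and 31520 to 33550. Of 10 pericentral markers 2 were higher and 0 lower, with sums of 294400 to 397000 and 459700 to 495800, and of 10 periportal markers 1 was higher and 1 lower, with sums of 180500 to 199600 and 223800 to 240600. Hepatocyte markers had 0 of 10 called and a summed level of 3441000 to 4314000 and 4277000 to 4625000. Of 12 macrophage markers 1 was higher and 1 lower, with a median log2 fold change of -0.133. Their sums were 15230 to 23420 in PBS and 13590 to 17720 in LD. By the same test 1.95% of all 14900 genes were higher and 2.21% lower. The part of these markers in the values above was not tested.

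In the nuclei, most members were highest in the hepatocyte groups. The authors' table gives the mean of UMIs, scaled per nucleus, for 12 numbered groups and 2 genotypes with 1 library each, so that levels and ratios have no error and no test. Group 0 was pericentral hepatocyte-like, with 9 of 10 pericentral markers highest there and Slc1a2 and Lgr5 among its leading genes. Group 1 was periportal hepatocyte-like, with 7 of 10 periportal markers highest there and Hal, Sds, Gls2 and Pck1 leading. The highest level was in group 0 or 1 for 25 of 31 members in the WT library and 21 in the KO library. Ms4a7 in group 3, macrophage-like, was 1.25 in the WT and 0.622 in the KO library, in the direction of the labels.

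**Figure D4:**
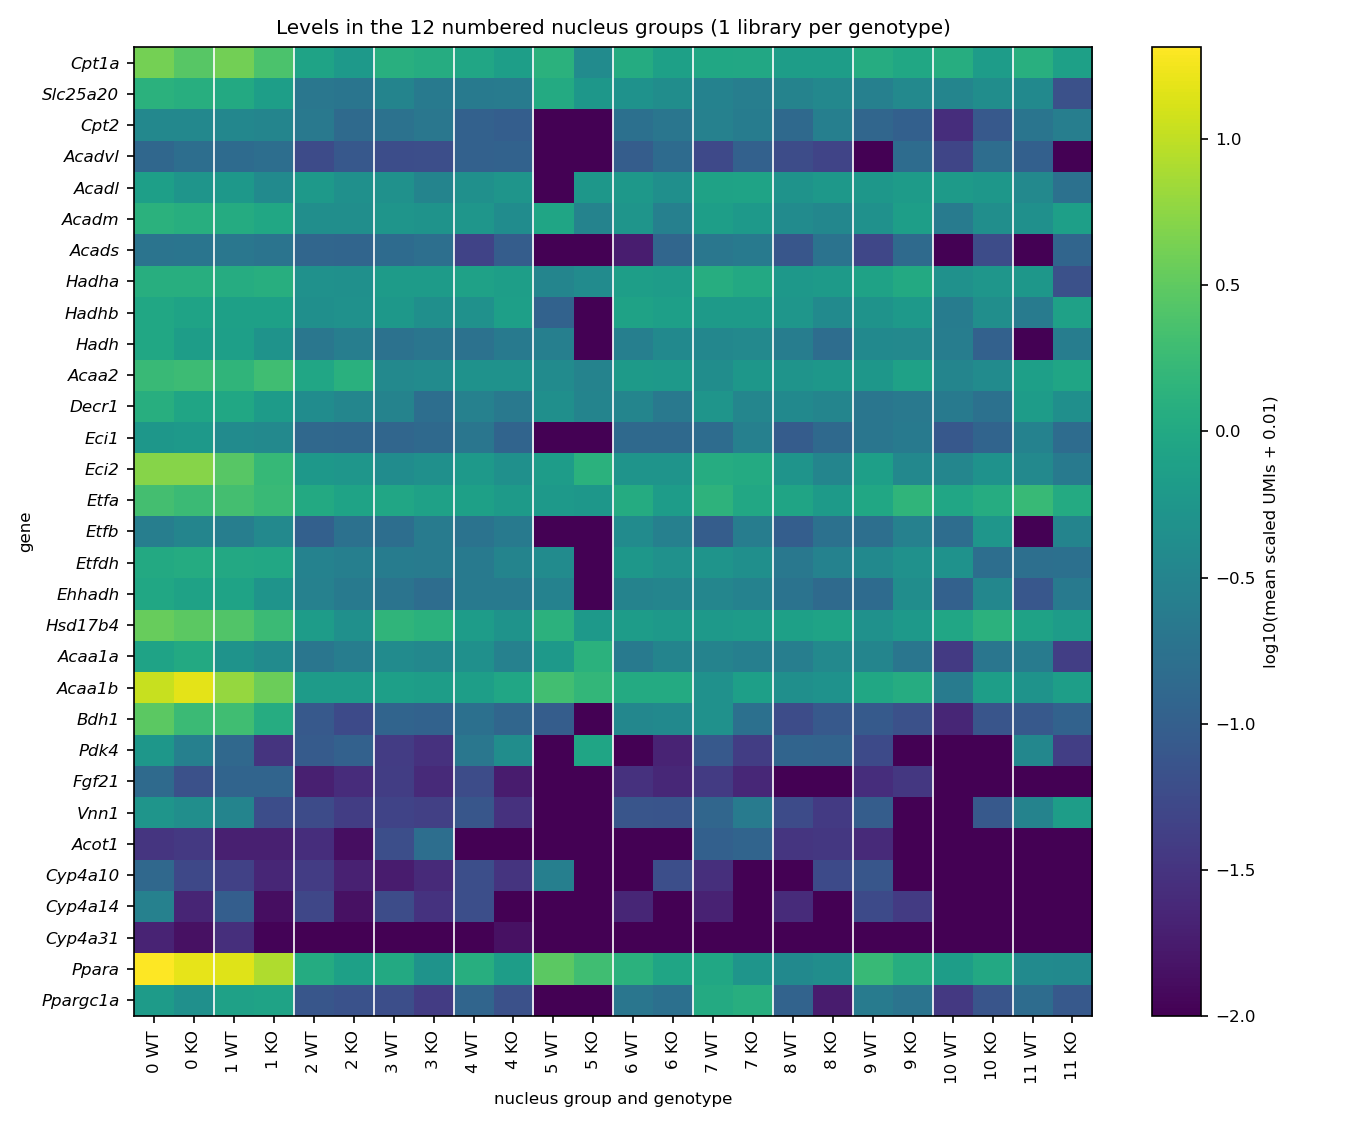
Mean scaled UMIs of the 31 members (y axis) in the 12 numbered groups of nuclei, WT and KO side by side (x axis), as log10 of the level plus 0.01 by colour. Groups 0 and 1, both hepatocyte-like, are brightest for most genes, and Ppara reaches 20.7 in group 0 of the WT library against at most 2.98 in groups 2 to 11.

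Members were mostly higher in pericentral than in periportal nuclei. Ppara was 20.7 in group 0 and 14.1 in group 1 of the WT library and 15.4 and 8.40 in the KO library. Pdk4 was 0.564 and 0.121 in WT, a ratio of 4.68, and Cyp4a14 was 0.280 and 0.0883, a ratio of 3.17. Acaa1b was 10.8 and 6.23, and Eci2, a peroxisomal and mitochondrial enoyl-CoA isomerase, was 5.20 and 2.80. Of the 31 members 25 were higher in group 0 in WT and 26 in KO, against 44.7% and 53.1% of all genes above the median level. In both libraries 23 were higher in group 0, and 3 were higher in group 1 in both, Acadvl, Etfb and Ppargc1a. The median ratio of group 0 to group 1 was 1.24 in WT and 1.42 in KO, against 0.982 and 1.01 for those genes. The members were taken at any level, so the sets compared are unlike.

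Levels of the members in hepatocyte nuclei were mostly lower in the KO library. In group 0, 20 of all 31 members were lower in KO, with a median log2 ratio of -0.22, against 46.3% of all genes above 0 in both libraries and a median of 0.04. In group 1, 24 of 31 were lower, with a median of -0.52, against 52.5% and -0.03. Over the 28 members of group 1 with a level above the median of all genes, the median was -0.45. Cyp4a14 was 0.280 in WT and 0.0123 in KO in group 0, and 0.0883 and 0.0034 in group 1. Vnn1 went from 0.533 to 0.431 in group 0 and from 0.299 to 0.0504 in group 1. Pdk4 went from 0.564 to 0.268 and from 0.121 to 0.0213. The KO levels of Cyp4a14 in both groups and of Pdk4 in group 1 were under the median level of all genes, 0.0326 in group 0 and 0.0328 in group 1, and the depth behind them is unknown.

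The enzymes showed smaller ratios in both directions. Cpt1a was 4.23 in WT and 2.83 in KO in group 0, and its log2 ratio in group 1 was -0.77. Bdh1 was 2.99 and 1.82 in group 0 and 1.99 and 1.12 in group 1, lower in both, where in the bulk libraries its groups overlapped. Cpt2, which fell in the bulk libraries labelled KO, was 0.346 and 0.348 in group 0 and 0.336 and 0.310 in group 1, and Etfdh was 1.03 and 1.07 and then 0.982 and 0.959. Of these 2 genes, called in the bulk libraries labelled KO, neither had a log2 ratio below -0.12 in these nuclei. Fgf21, called lower in the bulk libraries labelled LD (-1.04), where Ms4a7 was also lower, had a log2 ratio of -1.20 in group 0 and 0.02 in group 1. In group 0 Cyp4a14 and Pdk4 had ratios of -4.46 and -1.07. Their uncalled bulk changes were -2.38 and -0.76 in the libraries labelled LD and -0.71 and -0.42 in those labelled KO. Other members that were lower in group 0 were near or above 0 in the libraries labelled LD. Cpt1a, Bdh1 and Ppara had -0.58, -0.71 and -0.43 in group 0 against uncalled changes of -0.03, 0.095 and 0.26. No link between the nuclei and the bulk libraries was tested. Acaa2 was higher in KO in both groups, at 1.74 and 1.89 and at 1.46 and 1.97.

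**Figure D5:**
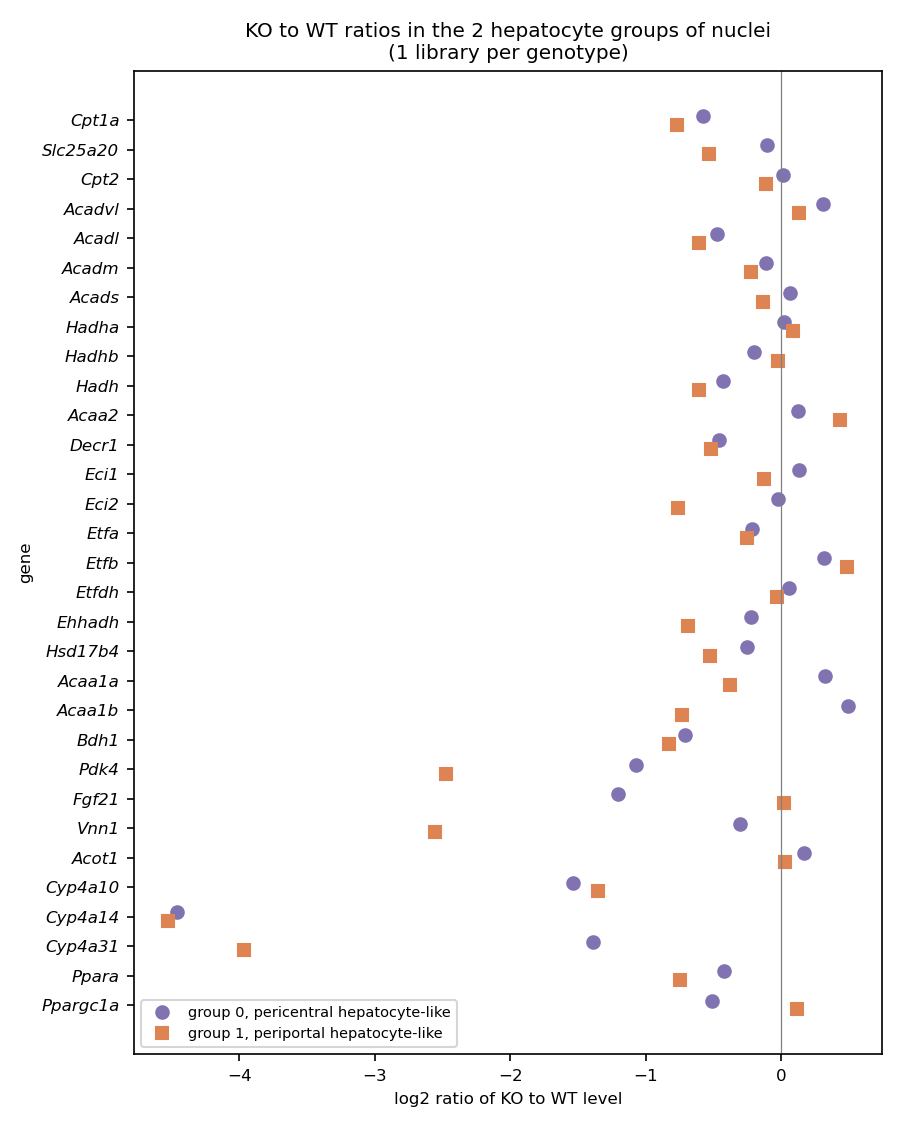
Log2 ratio of the KO to the WT level of each member (x axis) in group 0, pericentral hepatocyte-like (circles), and group 1, periportal hepatocyte-like (squares), from 1 library per genotype and so without error bars. Cyp4a14 is far to the left in both groups (-4.46 and -4.53), Vnn1 and Pdk4 in group 1 (-2.56 and -2.47), and the enzymes of the cycle lie mostly between -0.77 and 0.49.

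The summed level of 10 hepatocyte markers was also higher in the KO library in every group of nuclei. It was 66.5 in WT and 90.2 in KO in group 0 and 111 and 199 in group 1. In group 5, neutrophil-like, which should hold little hepatocyte RNA, the sum was 50.5 and 115. The sum of the pericentral markers was lower in KO in group 1 (5.96 and 5.62) and in group 11 (3.36 and 2.73). The part of free RNA in the lower members of hepatocyte nuclei was not tested.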

How the data were processed

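RNA was measured by RNA-seq in 12 bulk liver libraries, in 4 groups of 3, and by single-nucleus RNA-seq in 2 libraries. The submitters' processing notes name FastQC, STAR and DESeq2 for bulk data, Cell Ranger and Seurat 4.0.1 for nuclei, and build mm10, while the read counter and annotation are not given in the sources used here. The deposited bulk signal values are gene counts that the authors divided by a size factor per library: divided by the smallest step of its library, 100% came out whole (tolerance 0.01), which gave 21945394 to 23126164 gene reads per library in the table labelled WT and KO and 39318264 to 41346464 in the other. The authors' deposited log2 fold changes, p-values and adjusted p-values are quoted only where named as such. The deposited single-nucleus signal values are the authors' means per numbered group and genotype, and their depth is unknown.

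A gene entered the test when 3 of its 6 libraries, or more, had a normalized count of 10 or above. The 2-sided test was limma 3.58.1 in R 4.3.3 (lmFit, then eBayes with a trend) on log2 of the value plus 1, with Benjamini-Hochberg adjustment over all genes, a threshold of 0.05 and no covariate. Alternatives were a pseudocount of 10, no filter, a mean of at least 50, quantile normalization, edgeR 4.0.16 and DESeq2 1.42.0 on recovered reads, the replicate number as a block, and each library left out. The test was tried on simulated data first. The chi-square per degree of freedom between replicates was 18 at the lowest, so none is a copy.

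The members and the 7 pathway and 14 marker lists were chosen with earlier results of these data known. All members are named, with up to 4 called genes per list and direction, or the 2 highest where none was called. In nuclei, ratios had a pseudocount equal to the 5th percentile of nonzero values and used genes above the 50th percentile of level, and 4 entries with a repeated name were left out. Groups were named from the fixed markers where at least 3 were highest there and 1 was among its leading 10 genes, a rule set after the table was seen; how doublets were handled is not given in the sources used here. Gene positions and exon lengths are from GENCODE for mm10, and shared sequence was counted in stretches of 50 bases of its transcripts.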

Additional observations from a re-analysis of the deposited data

Results flagged for a closer look

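For 4 members the KO to WT log2 ratios in the 2 hepatocyte-like groups of nuclei had opposite signs, each by more than 0.1. The difference was not tested, since each genotype has 1 library. Acaa1b was 0.491 in group 0 and -0.731 in group 1, and Acaa1a was 0.322 and -0.382; the 2 thiolases share sequence. Eci1 was 0.129 and -0.13. Ppargc1a went the other way, at -0.513 in group 0 and 0.113 in group 1.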

How the results depend on the processing

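The number of members called lower in the libraries labelled KO, 2 in the test reported, was 1 without a filter (Etfdh), 0 with quantile normalization, 1 in edgeR (Etfdh) and 4 in DESeq2. Without 1 library it ran from 0 to 3. Among those labelled LD the number called, 1 in the test reported, was 3 in DESeq2 and 2 with the replicate block, and ran from 0 to 4 without 1 library. Calls over all genes also moved, from 589 to 1241 in DESeq2 and to between 124 and 530 without 1 library in the first table, and from 620 to 1221 and to between 134 and 1226 in the second. The median of the members in the second table, 0.033, was -0.112 with quantile normalization. In the first table it stayed below 0 in all settings, from -0.263 to -0.137, and in nuclei it ran from -0.24 to -0.217 in group 0 and from -0.523 to -0.425 in group 1. No called member changed sign. Of 389 single values under the alternatives in the first table, 14 lost and 3 gained a call and 20 uncalled values changed sign, in 7 members; of 402 in the second, 4 lost and 6 gained a call and 21 changed sign, in 11 members. The cause of these moves was not tested.

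No pairing by replicate number was seen, though 3 correlations per table cannot exclude it. Correlations of same-numbered deviations were 0.119, -0.03 and -0.018 in the first table and 0.048, -0.043 and 0.132 in the second. Those of unlike numbers ran from -0.067 to 0.088 and from -0.167 to 0.156. With the replicate block, calls over all genes went from 589 to 822 and from 620 to 793, the members called were 2 in the first table (Cpt2 and Etfdh) and 2 in the second (Fgf21 and Pdk4, adjusted p = 0.00675 for Pdk4). With 3 libraries a group, small differences of single enzymes cannot be resolved, and levels of a few reads, as for Fgf21 in the first table, allow no test.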

Other observations

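Some members were highest outside the hepatocyte-like nuclei, in 1 or both libraries. Ppargc1a, the coactivator gene of mitochondrial biogenesis, was 1.06 in the WT and 1.20 in the KO library in group 7, cholangiocyte-like, against 0.644 and 0.451 in group 0. Acadl was highest in the same group, at 0.816 and 0.818, against 0.742 and 0.534 in group 0. Acot1 was 0.0943 and 0.107 in group 7 and 0.0528 and 0.148 in group 3, macrophage-like, against 0.0230 and 0.0258 in group 0. Pdk4 was 0.199 and 0.416 in group 4, sinusoidal endothelial-like, higher in the KO library where both hepatocyte-like groups were lower. In group 0 Pdk4 was 0.564 and 0.268, its highest level in WT, and its highest level in KO was 0.876 in group 5, neutrophil-like. Vnn1 was 0.292 and 0.690 in group 11, mesothelial-like, against 0.533 and 0.431 in group 0. All are single values without error, and the depth of these groups is unknown.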
